A study of Mus musculus with 6 samples.

Results

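The 39 genes described here encode the machinery of autophagy and of the lysosome. All 39 were found by gene symbol among the 41128 Ensembl genes of the deposited mouse table, and all 39 are among the 13597 genes tested, those whose mean reached 1 RPM. RPM is a read count scaled to one common total per library, the deposited value less its offset of 1. Of the 39, 8 act in initiation and nucleation, 6 in conjugation, 5 are Atg8 proteins, 6 are cargo receptors or mitophagy genes, 3 are TFEB family transcription factors, 4 are lysosomal membrane proteins and 7 are soluble lysosomal proteins. No member passed an adjusted p of 0.05 in the comparison of YH250 with DMSO. The adjusted calls among members all lay between libraries that carry different replicate numbers, where 6 members were called in at least 1 contrast: Gabarapl1, Pink1, Npc2, Ctsd, Atg4b and Psap. The share of members called was 7.69% between numbers 3 and 1, beside 8.56% of all genes, and 10.3% between numbers 3 and 2, beside 6.31%.

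Autophagy encloses cytoplasm in a double membrane that then fuses with a lysosome, where acid hydrolases digest the cargo. The ULK kinase complex and the Beclin 1 lipid kinase complex start the membrane, a pair of ubiquitin-like conjugation systems attach Atg8 proteins (the LC3 and GABARAP proteins) to it, and receptors tether cargo such as damaged mitochondria to Atg8. TFEB, TFE3 and MITF are related basic helix-loop-helix factors that bind E-box sequences of lysosomal and autophagy genes, and mTORC1 keeps TFEB in the cytoplasm when nutrients are plentiful. In blood stem cells, autophagy is known to remove active mitochondria and to sustain quiescence, and loss of Atg5, Atg7 or Atg12 impairs stem cell function.

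Both groups were C57BL mice whose bone marrow was sorted 16 h after 1 agent was given under the skin. The control group received DMSO, the vehicle. The treated group received YH250 at 2 mg per kg, a small molecule that the submitters describe as an antagonist of the binding of p300 to catenin. The sorted cells, labelled long-term repopulating hematopoietic stem cells, were gated as negative for lineage markers, CD41 and CD48 and positive for Sca1, c-Kit and CD150, and each group has 3 poly(A) RNA libraries numbered 1 to 3. The labels give no age, no number of animals per library and no meaning for the numbers, so p-values measure only the spread between these libraries.

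Facts of the libraries touch several results. One read was worth 0.0321 to 0.0455 RPM, so 1 RPM rests on 21.96 to 31.19 reads, and all genes together made up 699979 to 959240 RPM per library. Of 11 stem cell markers, 10 or 11 reached 1 RPM in each library. Their sum was 1085 to 1336 RPM in the libraries numbered 1, 1170 to 1237 RPM in those numbered 2 and 642 to 721 RPM in those numbered 3. Slamf1, the gene of the required CD150, read 35.5, 0.515 and 4.69 RPM in the DMSO libraries 1, 2 and 3, against 31.5, 3.92 and 1.54 RPM in the YH250 libraries 1, 2 and 3. Cd48, whose protein the sort was to exclude, read 10.2 RPM with DMSO and 13.1 with YH250 for number 1, then 258 and 252 RPM for number 3. The 7 markers of multipotent progenitors summed to 218 to 243 RPM in number 1, 908 to 1012 RPM in number 2 and 1884 to 1961 RPM in number 3. YH250 2 stood apart in another list: its 9 endothelial and stromal markers summed to 421 RPM, against 98.1 to 131 RPM in the other 5 libraries, with Col1a1 and Col3a1 under 1 RPM on average.

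The promoters of the members are shown first because TFEB family factors bind an E-box, the hexamer CACGTG, which reads the same on both strands. RefSeq promoters of GRCm38.p6, from 250 bases before to 50 after the annotated start, matched 32 of the 39 members. The hexamer occurred in 10 of these 32 genes (31.2%) and in 8.09% of all 27025 genes with a promoter in the same table. Outside the 39, it occurred in 4 of 11 proton pump genes (36.4%) and 10 of 33 other lysosomal genes (30.3%). It also occurred in 3 of 28 other autophagy genes (10.7%) and 2 of 11 genes of nutrient control of TFEB (18.2%). The 7-base form TCACGTG, searched on both strands and containing the hexamer, occurred in 7 members (21.9%) and in 4.29% of all genes. The 8-base form GTCACGTG, again on both strands and containing the shorter forms, occurred in 7 members and in 2.55% of all genes. Another 8-base form, the hexamer with T before it and A after it, occurred in 4 members (12.5%) and in 1.12% of all genes. A 10-base form that extends the first 8-base form and reads the same on both strands occurred in 0 of the 32 members. It occurred in 0.37% of all genes, a share too low for 32 genes to show whether members differ. By role, the hexamer was found in 3 of 4 conjugation genes, 2 of 3 lysosomal membrane genes, 3 of 6 lysosomal lumen genes, 1 of 7 initiation genes, 1 of 5 receptors and none of the 4 Atg8 or 3 TFEB family genes. The windows of 5 members with the 7-base form are printed 5′ to 3′ on the gene's own strand, from RefSeq, with each hexamer in capitals, to show how closely the copies lie. They are Lamp1 (chr8:13159086-13159160, plus strand), Mcoln1 (chr8:3500439-3500479, plus strand), Atg3 (chr16:45158726-45158775, plus strand), Ctsd (chr7:142387908-142387937, minus strand) and Ctsa (chr2:164833758-164833787, plus strand).
Lamp1: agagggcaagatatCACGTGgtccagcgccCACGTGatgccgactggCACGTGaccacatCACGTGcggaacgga
Mcoln1: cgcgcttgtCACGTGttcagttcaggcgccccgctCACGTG
Atg3: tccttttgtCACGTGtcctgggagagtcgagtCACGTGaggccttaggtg
Ctsd: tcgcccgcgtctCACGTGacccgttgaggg
Ctsa: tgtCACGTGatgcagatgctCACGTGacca

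Lamp1 held 4 copies within 75 bases of its start site, and Mcoln1, Atg3, Ctsa and Ctsd held 2 each in the whole promoter. The other 5 members with the hexamer, Atg14, Atg5, Atg7, Bnip3 and Ctsl, held 1 copy each. A match is a description of the letters and not a measured binding site.

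**Figure D1:**
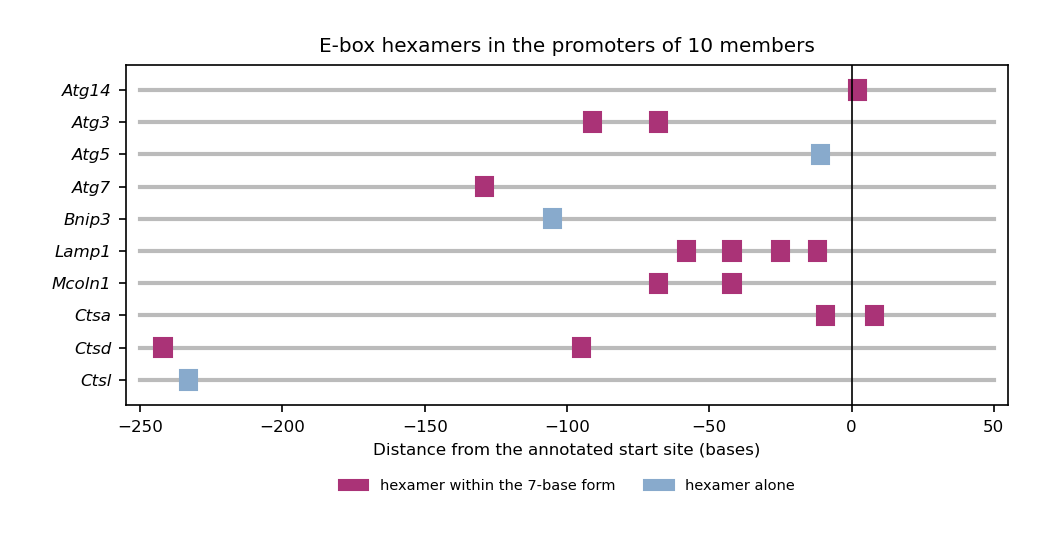
Each row is the RefSeq promoter of 1 of the 10 members that hold CACGTG, and each box marks 1 hexamer by its distance in bases from the annotated start site; dark boxes lie within the 7-base form TCACGTG on either strand. Lamp1 has 4 boxes, all before its start, whereas the boxes of Ctsa lie on both sides of it.

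The 10 members with the hexamer and the 22 without it were set side by side as a description. The median log2 difference, YH250 minus DMSO, was 0.09 for those with it (7 higher and 3 lower) and -0.01 for those without (9 higher and 13 lower). Between numbers 3 and 2, the medians were -0.43 (2 higher and 8 lower) and -0.25 (7 higher and 15 lower). None of these pairs of medians was tested.

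Levels per kilobase of exon allow a rough comparison between genes, since length here is the union of all annotated exons of a gene. They spanned from Mitf at 0.774 RPM per kb to Gabarap at 62.1 RPM per kb (means of 6 libraries). The order depends on that annotated length: Npc2 averaged 165 RPM over 5438 bases and Gabarap 114 RPM over 1844 bases. Gabarap was followed by Ctsd (54.0), Gabarapl1 (50.4), Gabarapl2 (48.6), Map1lc3b (48.5), Bnip3l (47.0), Lamp1 (44.5) and Psap (42.5 RPM per kb). The high end thus held 4 of the 5 Atg8 genes, the mitophagy receptor Bnip3l and lysosomal structure and cargo-digesting proteins. The fifth Atg8 gene, Map1lc3a, stood at 14.9 RPM per kb. The low end held all 3 TFEB family genes, with Mitf and Tfe3 (1.12 RPM per kb) as the lowest pair, together with the lipid-binding initiation gene Wipi1 (1.13), the receptor Optn (1.20), the calcium channel gene Mcoln1 (1.57) and Atg9a (1.82 RPM per kb). Gabarapl1 and Gabarapl2, neighbours in this order, exchanged places between libraries. Within a gene, the highest library exceeded the lowest by 1.33-fold for Sqstm1, which encodes the receptor p62, and by 15.4-fold for Atg9a, which encodes a lipid scramblase of the forming membrane.

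**Figure D2:**
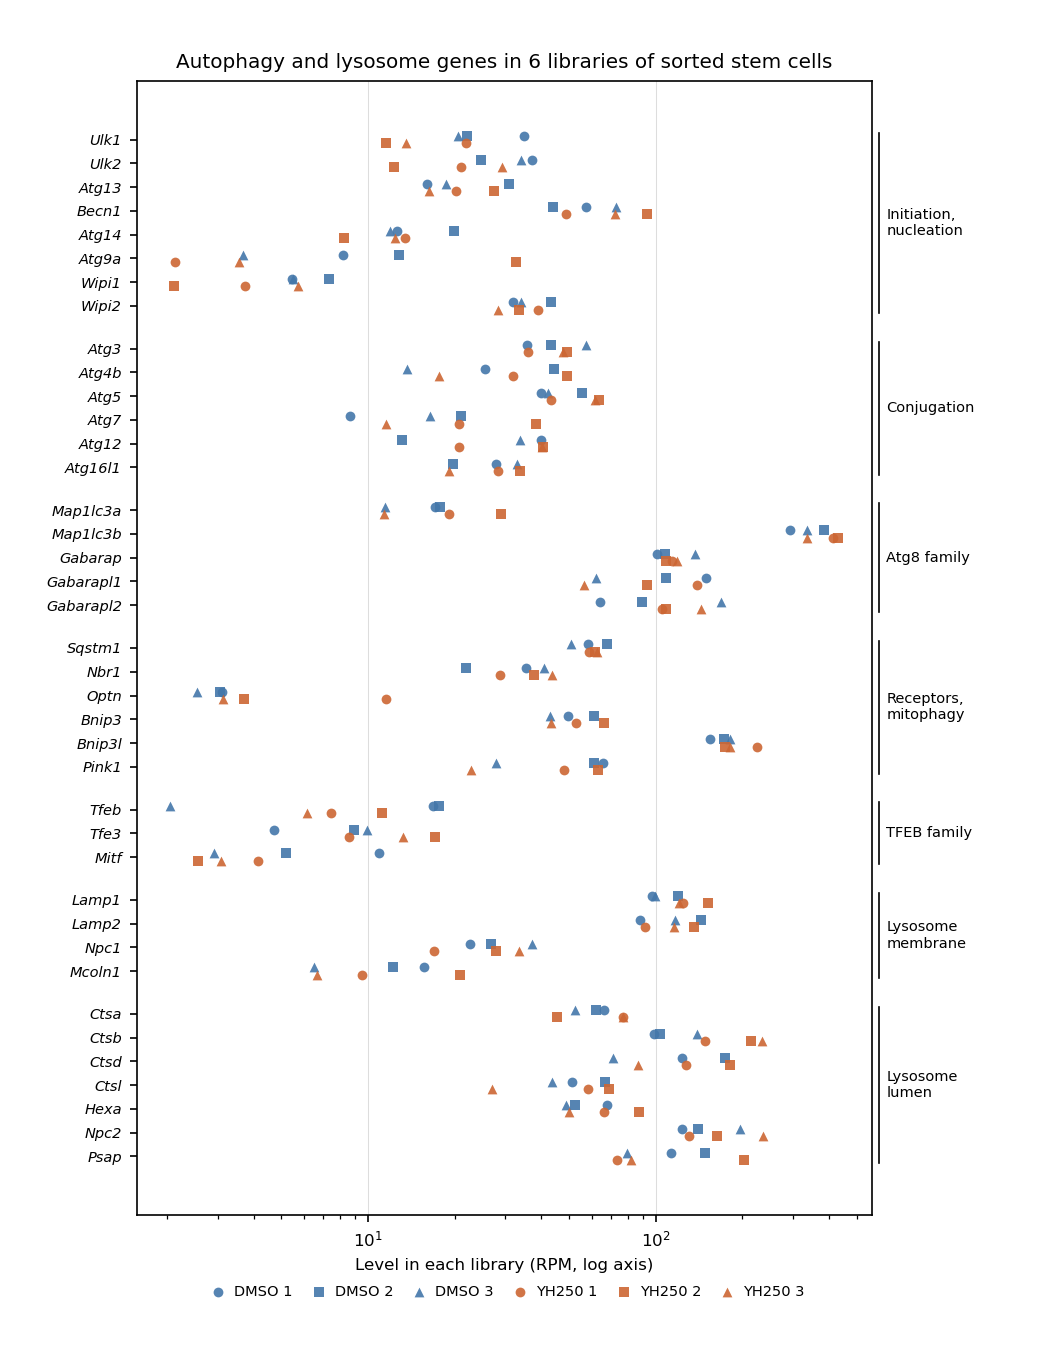
Each row is 1 member, grouped by role, and each symbol is the level of 1 library in RPM on a log axis; blue is DMSO, orange is YH250, and circles, squares and triangles are numbers 1, 2 and 3. Map1lc3b lies highest, between 292 and 430 RPM, and for most genes the 2 colours overlap.

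In the sum over all 39 genes, DMSO 1, 2 and 3 had 2268, 2578 and 2360 RPM, and YH250 1, 2 and 3 had 2510, 3002.5 and 2490 RPM. The group means were 2402 ± 159 and 2668 ± 290 RPM (SD, n = 3 each), and the groups overlap. YH250 2 was the highest library for 17 of the 39 members, and it was the highest for 25.1% of all tested genes. The sum of endothelial and stromal markers was also highest there, as given above, and its part in the members' levels was not tested. In such bulk samples fewer cells of a type and less RNA per cell cannot be told apart.

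The question of the series, per the submitters' design note, was which genes of stemness and expansion YH250 raises. For the 39 members, limma with Benjamini-Hochberg adjustment over 13597 genes called 0, as it did over all genes (0% called), and the smallest adjusted p was 0.999. At an unadjusted p under 0.05, 1 of 39 members passed, the protease gene Ctsb, against 1.7% of all genes. The members' median log2 difference was 0.06, with 22 higher and 17 lower, beside 0.02 over all genes. The members' median was -0.04 (18 higher and 21 lower) when each library was rescaled to the same sum over genes, where the median of all genes was -0.07. It was -0.08 without YH250 2 and 0.19 without YH250 3. As deposited, the groups did not overlap for 3 of 39 members with higher values in YH250 (Ctsb, Lamp1 and Optn), against 3.79% of all genes. With lower values in YH250 they did not overlap for 0, against 3.68%. Overlap was not counted under other scalings.

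Compared within each number, 10 of 39 members were higher in YH250 at all 3 numbers, against 16.1% of all genes. Ulk1, Ulk2 and Gabarapl1 were lower at all 3 numbers, 3 of 39 against 15% of all genes. With the replicate number as a block, limma gave 3 of 39 members at an unadjusted p under 0.05 (Ctsb, Ulk1 and Ulk2), against 7.44% of all genes, and still no gene passed adjustment (smallest adjusted p 0.66).

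Among initiation genes, 1 of 8 was higher in YH250 and 7 were lower, with a median log2 difference of -0.23. Ulk1, the kinase that starts autophagy, read 34.8, 22.1 and 20.6 RPM in the DMSO libraries 1, 2 and 3, against 21.9, 11.6 and 13.6 RPM in the YH250 libraries 1, 2 and 3. The groups overlap by 1 value, YH250 1, and the log2 difference was -0.70 with a 95% interval of -1.49 to 0.10. Its relative Ulk2 read 37.2, 24.8 and 34.1 RPM under DMSO against 21.0, 12.3 and 29.1 RPM under YH250. The log2 difference of Ulk2 was -0.66 (95% interval -1.46 to 0.15), and YH250 3 lay above DMSO 2. With the replicate block, the unadjusted p was 0.023 for Ulk1 and 0.027 for Ulk2, with an adjusted p of 0.66 for both in limma. Wipi1 read 5.45, 7.32 and 5.47 RPM under DMSO against 3.72, 2.12 and 5.72 RPM under YH250, a log2 difference of -0.60 ± 0.46 (SE). Becn1, which encodes Beclin 1, was the 1 initiation gene with a positive difference, 0.28 ± 0.30 (SE) on the log2 scale, and its highest value, 93.0 RPM, was in YH250 2. Atg9a read 8.17, 12.8 and 3.68 RPM under DMSO against 2.13, 32.7 and 3.55 RPM under YH250, so its 15.4-fold range lay within the YH250 group. The other 3 members (Atg13, Atg14 and Wipi2) had log2 differences of -0.34 to -0.02.

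Of the 6 conjugation genes, 5 had a positive difference and 1 a negative one, with a median of 0.27. Under the 3 other scalings the split was 4 and 2, since Atg16l1 differed by 0.00. Atg5, the conjugate partner of Atg12, read 39.8, 55.5 and 42.3 RPM under DMSO against 43.1, 63.4 and 61.5 RPM under YH250, a log2 difference of 0.28 ± 0.26 (SE). Atg7, the activating enzyme of both systems, read 8.68, 21.0 and 16.4 RPM under DMSO against 20.8, 38.4 and 11.6 RPM under YH250. For Atg7 the groups overlap, and the difference of 0.51 ± 0.48 (SE) was positive at numbers 1 and 2 only. Atg3, Atg4b and Atg12 had differences of -0.02 to 0.30. None of the 6 passed an unadjusted p of 0.05, with or without the block.

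The Atg8 genes had 3 positive and 2 negative differences, with a median of 0.22. Map1lc3b, the most abundant LC3 gene, read 292, 385 and 334 RPM under DMSO against 412, 430 and 336 RPM under YH250, which is 337 ± 46.7 and 392 ± 50.1 RPM (SD, n = 3 each). At number 3 the libraries were almost level, and its log2 difference was 0.22 with an interval of -0.26 to 0.70. Map1lc3a (0.27 ± 0.39), Gabarap (-0.01 ± 0.21), Gabarapl1 (-0.15 ± 0.40) and Gabarapl2 (0.25 ± 0.35) had differences below their standard errors. Gabarap had the narrowest interval of these 4, -0.49 to 0.48, which still spans changes in both directions.

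Receptors and mitophagy genes had 5 positive and 1 negative difference, with a median of 0.13 (3 and 3, with a median of 0.04, after rescaling to the same sum). Optn, the gene of the receptor optineurin, read 3.11, 3.05 and 2.55 RPM under DMSO against 11.6, 3.72 and 3.13 RPM under YH250. As deposited, the groups do not overlap, but 1 library, YH250 1, carried the difference. The log2 value was 0.68 ± 0.53 (SE) with all libraries and 0.18 without YH250 1. Bnip3l, the receptor that clears mitochondria in maturing red cells, read 154, 173 and 181 RPM under DMSO against 226, 174 and 180.5 RPM under YH250, again with YH250 1 the highest. Sqstm1 averaged 58.8 ± 8.44 RPM for DMSO and 60.9 ± 1.94 RPM for YH250 (SD, n = 3 each), a log2 difference of 0.06 with an interval of -0.44 to 0.56. The other receptor genes, Nbr1 and Bnip3, and the kinase gene Pink1 had differences of 0.19, 0.08 and -0.22, each below its standard error.

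The TFEB family had 1 positive and 2 negative differences. Tfeb read 16.8, 17.6 and 2.05 RPM under DMSO against 7.44, 11.2 and 6.13 RPM under YH250. DMSO 3 was the lowest library, below all 3 of YH250, whereas DMSO 1 and 2 were the highest. The log2 difference of Tfeb was -0.15 ± 0.69 (SE), and leaving out 1 library at a time moved it from -1.01 to 0.29. Tfe3 read 4.72, 8.94 and 9.93 RPM under DMSO against 8.56, 17.1 and 13.2 RPM under YH250, higher at all 3 numbers by 0.66 ± 0.43 (SE) on the log2 scale, with 1 overlap through YH250 1. Mitf read 10.9, 5.19 and 2.91 RPM under DMSO against 4.14, 2.56 and 3.09 RPM under YH250, a log2 difference of -0.65 ± 0.52 (SE) with overlapping groups. The 10 tested genes of nutrient control of TFEB, such as the mTORC1 subunit gene Rptor, had 4 positive and 6 negative differences with a median of -0.05. Rptor itself read 12.7, 7.29 and 13.3 RPM under DMSO against 15.4, 23.3 and 18.9 RPM under YH250. Its groups did not overlap, and the unadjusted limma p was 0.061. Of the 10 genes, 1 had no overlap with higher values in YH250, against 3.79% of all genes, and 1 with lower values, against 3.68%.

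The 4 lysosomal membrane genes had a median of 0.01, which was -0.08 after rescaling to the same sum and -0.03 with quantile normalization. Lamp1, a main glycoprotein of the lysosomal membrane and the gene with 4 hexamers, read 97.0, 119.9 and 99.4 RPM under DMSO against 124, 152 and 121 RPM under YH250. As deposited, all 3 values of YH250 lay above all 3 of DMSO, by a narrow margin between DMSO 2 and YH250 3. All genes summed to 756066 RPM in DMSO 2 and 936080 RPM in YH250 3, so the order of this pair depends on the scale. The log2 difference was 0.33 with an interval of -0.16 to 0.81, and it was alike at each number (0.35, 0.34 and 0.28). Its partner Lamp2 had a difference of -0.01 ± 0.26 (SE), Npc1, the membrane cholesterol exporter, one of -0.16 ± 0.33 (SE), and Mcoln1 one of 0.03 ± 0.50 (SE).

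In the lysosomal lumen, 5 of 7 genes had a positive difference, with a median of 0.13. Ctsb, the gene of the cysteine protease cathepsin B (GRCm38 chromosome 14, 63122462 to 63145923), read 98.95, 103 and 139 RPM in the DMSO libraries 1, 2 and 3, against 149, 214 and 233 RPM in the YH250 libraries 1, 2 and 3. Every YH250 library lay above every DMSO library, and YH250 exceeded DMSO at each number. Means were 114 ± 22.2 RPM for DMSO and 199 ± 44.5 RPM for YH250 (SD, n = 3 each), and the log2 difference was 0.79 with a 95% interval of 0.21 to 1.37. The unadjusted limma p was 0.013 without and 0.0008 with the replicate block, and the adjusted p was 0.999 and 0.66. Leaving out 1 library at a time gave log2 differences of 0.66 to 0.98. In the list of 16 macrophage and monocyte markers, a cell type rich in cathepsins, the sum was 171, 246 and 586 RPM in DMSO and 290, 431 and 614 RPM in YH250, also higher in YH250 at each number. Of the 13 markers tested, 2 were higher at all 3 numbers, and the list's median log2 difference was 0.77, 0.42 and -0.12 at numbers 1, 2 and 3. Marco, Cd14 and Fcgr1 were under 1 RPM on average. The part of such cells in the Ctsb values was not tested. For the other 6 lumen genes the differences were smaller: Ctsa, Ctsd, Ctsl, Hexa, Npc2 and Psap had log2 differences of -0.15 to 0.24, all with intervals that include 0. Hexa, a subunit gene of hexosaminidase, read 67.8, 52.5 and 48.8 RPM under DMSO against 65.9, 87.4 and 50.1 RPM under YH250, so its difference of 0.24 came from YH250 2.

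**Figure D3:**
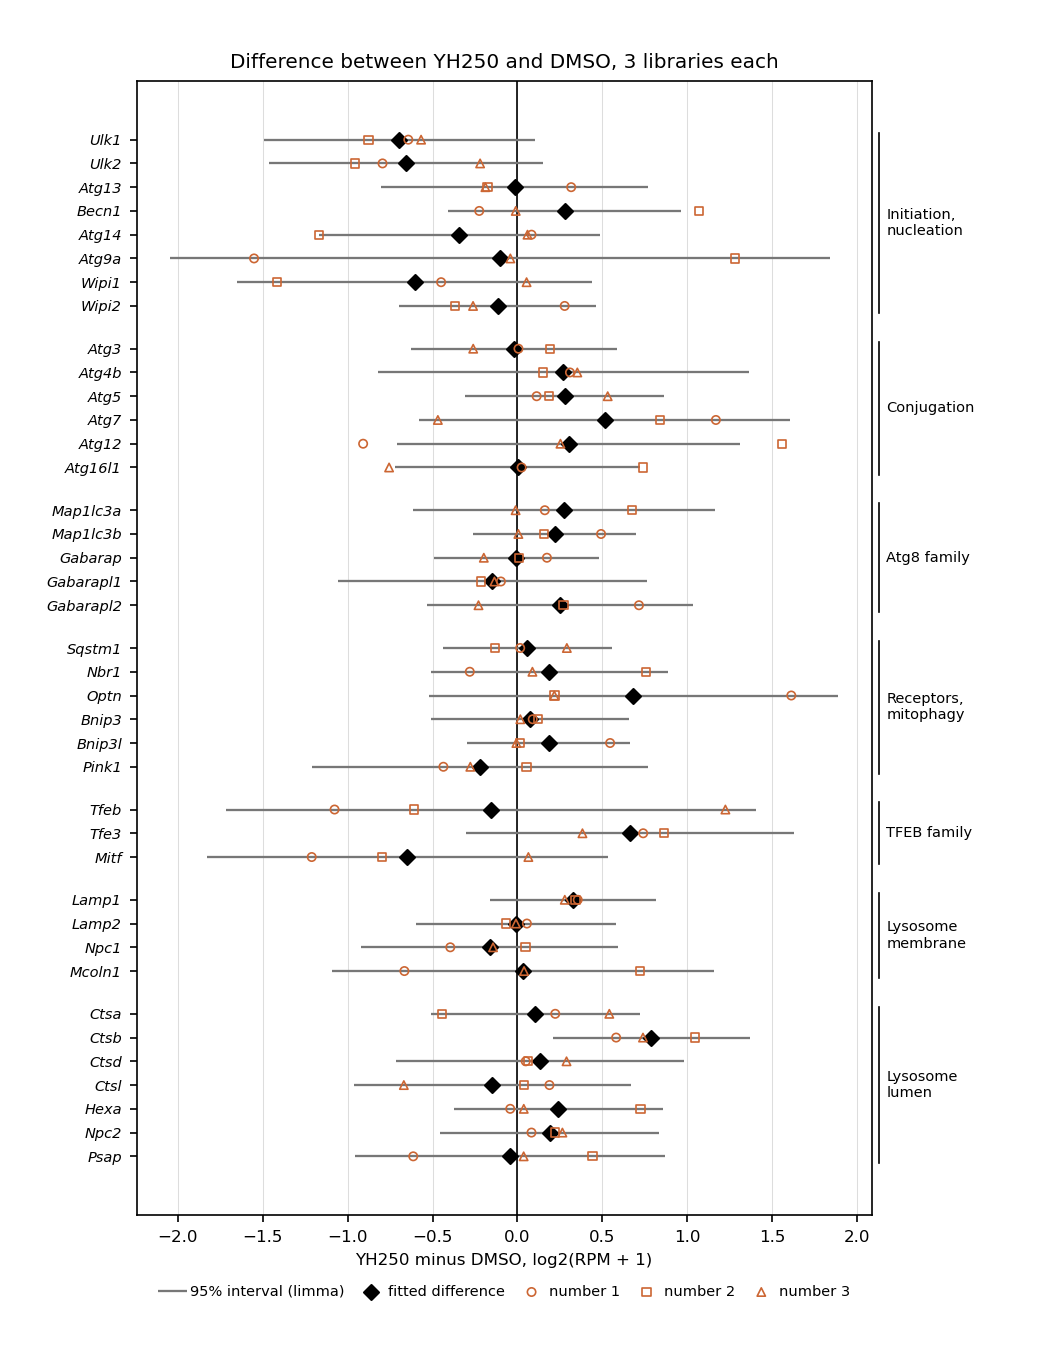
Each row is 1 member; the diamond is the log2 difference, YH250 minus DMSO, the line its 95% interval from limma, and the open symbols the difference within each number. The interval of Ctsb, 0.21 to 1.37, is the one that leaves out 0.

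Outside the 39, other genes of the pathway were described the same way, and limma called 0 of them between treatments. The 34 other autophagy genes had 18 positive and 16 negative differences with a median of 0.02, and the 16 subunits of the proton pump that acidifies lysosomes had 10 and 6 with a median of 0.06. The 41 other lysosomal genes had 25 and 16 with a median of 0.15, and 1 of them, the phospholipase gene Pla2g15, had an unadjusted p under 0.05. Pla2g15 read 11.7, 11.3 and 10.02 RPM under DMSO against 3.46, 8.51 and 3.88 RPM under YH250, lower in every YH250 library, in the direction opposite to Ctsb.

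The calls among members lay between replicate numbers, fitted with treatment as a second term and 2 libraries per number. These contrasts were chosen because earlier results of the same data showed that libraries of the same number resemble each other. Their adjusted p-values therefore do not come from a comparison fixed in advance. Between numbers 3 and 1, limma called 3 of 39 members at an adjusted p under 0.05, against 8.56% of all genes. Of these, 1 was higher, against 5.6% of all genes, and 2 were lower, against 2.96%. Between numbers 3 and 2 it called 4 of 39, against 6.31%, with 0 higher against 3.67% and 4 lower against 2.64%. The contrast of numbers 2 and 1 gave 0 of 39, against 0.199%, and 8 members (20.5%) had an unadjusted p under 0.05, against 14.3% of all genes. The share of members called lower was 5.13% in the first contrast and 10.3% in the second, both above the share of all genes, though they rest on 2 and 4 genes and the contrasts share the libraries numbered 3. With no minimum mean, or without trend and robust moderation, limma called 0 of the 39 in each.

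Gabarapl1 (chromosome 6, 129533160 to 129542346), an Atg8 gene, read 149 RPM with DMSO and 140 with YH250 for number 1, then 108 and 93.4 RPM for number 2, then 61.8 and 56.2 RPM for number 3. Libraries of a number lay close together and the 3 numbers did not overlap. The log2 difference between numbers 3 and 1 was -1.28 ± 0.20 (SE, limma adjusted p 0.0047), and leaving out any 1 library kept the call and a difference between -1.32 and -1.24. Its relative Gabarapl2 read 63.8 RPM with DMSO and 105 with YH250 for number 1, then 89.5 and 108 RPM for number 2, then 168 and 143 RPM for number 3. The difference between numbers 3 and 1 was 0.91 ± 0.25 (SE), with an adjusted p of 0.052 in limma, just outside the threshold.

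The 2 genes were also set against each other within a library, a ratio that a single scaling factor per library cannot alter. The ratio is formed from the same values as the opposite differences above, so it adds no support to them. The ratio of Gabarapl1 to Gabarapl2 RPM was 2.34 and 1.32 in DMSO 1 and YH250 1. It was 1.21 and 0.863 in number 2, and 0.368 and 0.393 in number 3. Gabarapl1 made up 24.0% and 17.7% of the RPM of the 5 Atg8 genes in number 1 and 8.68% and 8.45% in number 3. Gabarapl2 made up 10.2% and 13.3% in number 1 and 23.6% and 21.5% in number 3. Map1lc3b took 46.9% to 55.9% of the family in all 6 libraries, and the summed RPM of the family was 623 to 790. Gabarapl1 was the higher of the pair in both libraries numbered 1, and Gabarapl2 in both numbered 3.

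Pink1 (chromosome 4, 138313409 to 138326307), the gene of a kinase that marks damaged mitochondria, read 65.5 RPM with DMSO and 48.1 with YH250 for number 1, then 60.9 and 63.2 RPM for number 2, then 28.0 and 22.9 RPM for number 3. Both libraries numbered 3 lay below the other 4. The log2 difference was -1.12 ± 0.25 (SE, limma adjusted p 0.025) against number 1 and -1.26 ± 0.25 (SE, adjusted p 0.019) against number 2. Against number 1 the call was lost without DMSO 1, DMSO 3 or YH250 3 (limma adjusted p 0.109 to 0.290), and against number 2 without DMSO 3 or YH250 3 (0.120 and 0.082). The mitophagy receptors Bnip3 and Bnip3l had log2 differences of -0.25 and -0.04 between numbers 3 and 1, neither called.

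Atg4b (chromosome 1, 93751500 to 93790610), a protease gene that primes and releases Atg8 proteins, read 25.5 RPM with DMSO and 31.8 with YH250 for number 1, then 44.2 and 49.2 RPM for number 2, then 13.6 and 17.7 RPM for number 3. The 3 numbers did not overlap. The difference between numbers 3 and 2 was -1.53 ± 0.27 (SE, limma adjusted p 0.014), and the call was lost without DMSO 3 or YH250 3 (adjusted p 0.130 and 0.062).

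Lumen genes went in both directions. Ctsd (chromosome 7, 142375911 to 142388038), the aspartic protease cathepsin D, read 123 RPM with DMSO and 127 with YH250 for number 1, then 173 and 181 RPM for number 2, then 70.9 and 86.8 RPM for number 3. Its difference between numbers 3 and 2 was -1.17 ± 0.20 (SE, limma adjusted p 0.011), and the call was lost without DMSO 3 (adjusted p 0.055). Psap (chromosome 10, 60277627 to 60302597), the precursor gene of the saposins that help degrade sphingolipids, read 149 RPM with DMSO and 203 with YH250 for number 2, then 79.6 and 81.7 RPM for number 3. Number 1, with 113 and 73.3 RPM, lay on both sides of number 3. Its difference between numbers 3 and 2 was -1.10 ± 0.26 (SE, limma adjusted p 0.039), and the call was lost without DMSO 3, YH250 2 or YH250 3 (adjusted p 0.058 to 0.152).

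Npc2 (chromosome 12, 84754562 to 84773152), the soluble cholesterol carrier that passes its load to Npc1, went the other way. It read 123 RPM with DMSO and 131 with YH250 for number 1, then 140 and 164 RPM for number 2, then 196 and 235 RPM for number 3. The difference between numbers 3 and 1 was 0.75 ± 0.19 (SE, limma adjusted p 0.038). That call was lost without DMSO 1, DMSO 3, YH250 1 or YH250 3 (adjusted p 0.112 to 0.222). It was also lost when libraries were rescaled to the same sum (0.39, adjusted p 0.198) or quantile normalised (0.36, adjusted p 0.261). The other 6 calls between numbers held under each scaling. The ratio of Ctsd to Npc2 RPM within a library was 0.995 and 0.972 in number 1, 1.24 and 1.11 in number 2 and 0.362 and 0.369 in number 3. On this ratio, which a single factor per library does not alter, the libraries of each number lay side by side. Ctsd was called lower and Npc2 higher in number 3, so their ratio adds no support to those calls. The ratio of Ctsd to Ctsb was 1.24 and 0.856 (DMSO, then YH250) in number 1 and 1.68 and 0.845 in number 2. In number 3 it was 0.508 and 0.372, so libraries of a number lay less close on it.

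**Figure D4:**
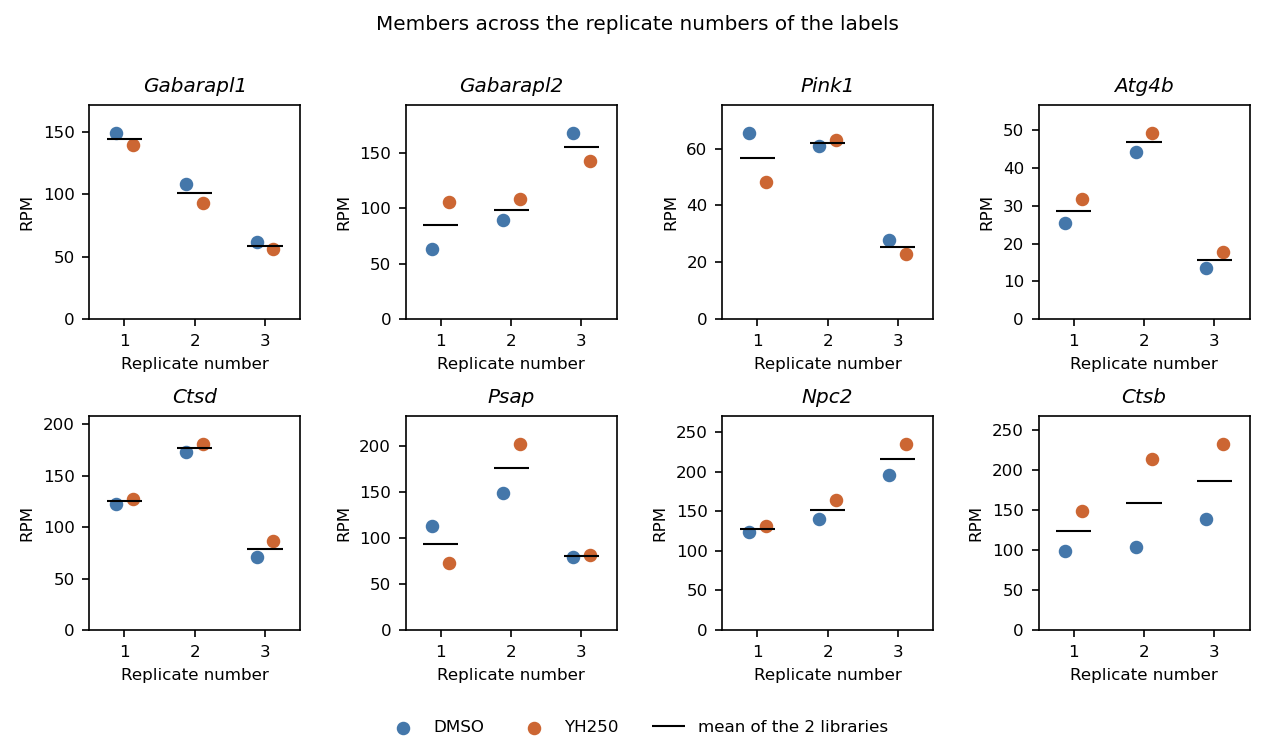
Each panel shows the RPM of 1 member, starting at 0, for the DMSO (blue) and YH250 (orange) library of each replicate number, with a bar at the mean of the 2. Gabarapl1 is lowest and Gabarapl2 highest in number 3, and Pink1, Atg4b and Ctsd are lowest there. Each panel has its own axis, and Ctsb has orange above blue by the widest margin in RPM at every number. On the log2 scale, Gabarapl2 has a wider margin than Ctsb at number 1 (0.72 against 0.58).

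The scale of the libraries matters for these contrasts, because genes summed to 959240 and 936080 RPM in number 3 and to 699979 and 779144 RPM in number 1. Rescaling each library to the same sum moved the median of all genes between numbers 3 and 1 from 0.04 to -0.28, and the 761 higher and 403 lower calls over all genes became 470 and 902. Quantile normalization gave 642 and 661. Between numbers 3 and 2 the median moved from 0.08 to -0.15, and the 499 higher and 359 lower calls became 353 and 725, or 438 and 524 with quantile normalization. The members' median relative to that of all genes was -0.09 as deposited, -0.13 after rescaling and -0.18 with quantile normalization between numbers 3 and 1, and -0.29, -0.29 and -0.27 between numbers 3 and 2.

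The lysosomal genes Ctss and Cd63 differed by more between numbers 3 and 1 than any of the 39 members. Ctss, a cysteine protease gene of antigen-presenting cells, read 9.48 RPM with DMSO and 20.4 with YH250 for number 1, then 50.3 and 69.2 RPM for number 2, then 203 and 256 RPM for number 3, a log2 difference of 3.94 ± 0.25 between numbers 3 and 1 (SE, limma adjusted p 2.9e-05). Cd63, a tetraspanin gene of late endosomes, read 340 RPM with DMSO and 360 with YH250 for number 1, then 151 and 101 RPM for number 3, a difference of -1.49 ± 0.22 (SE, adjusted p 0.0035). Of the 41 other lysosomal genes, 5 (12.2%) were called between numbers 3 and 1, against 8.56% of all genes. Besides Ctss and Cd63 they were Ctsh, also higher, and Ctsf and Gaa, also lower, which were named after their values were seen. Of the 34 other autophagy genes, 1 (2.94%) was called, Atg10, a conjugating enzyme gene, higher by 1.35 ± 0.36 (SE, limma adjusted p 0.046). That call was lost without DMSO 1, DMSO 3 or YH250 3 (log2 differences of 0.80, 1.23 and 1.48), and after rescaling to the same sum (adjusted p 0.114). None of the 16 proton pump genes was called.

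Markers of other cells also moved with the numbers. The 16 macrophage and monocyte markers summed to 171 and 290 RPM in number 1 and to 586 and 614 RPM in number 3, with 10 to 13 of them at 1 RPM or more in each library. Of the 13 tested, 8 were higher in number 3 and 5 lower, with a median log2 difference of 0.50, and limma called 3 higher and 0 lower. Within that list Ly6c2 went from 3.38 and 30.4 RPM to 246 and 336 RPM and Mpeg1 from 0.384 and 2.37 RPM to 87.2 and 66.4 RPM, whereas Lyz2, the gene of lysozyme, went from 128 and 189 RPM to 124 and 101 RPM, Marco stood at or near 0 in all 6 libraries and Adgre1 under 1 RPM in all but YH250 2. The 9 dendritic cell markers summed to 356 and 636 RPM in number 1 and to 2202 and 3541 RPM in number 3, and the 8 B cell markers to 64.0 and 170 RPM and to 616 and 810 RPM. In number 2 the dendritic cell list summed to 955 and 1103 RPM and the B cell list to 269 and 288 RPM (DMSO, then YH250). All 12 T and NK cell markers and all 9 tested neutrophil markers were also higher in number 3, with medians of 2.12 and 0.85 on the log2 scale. Of 4 tested mast cell and basophil markers, 3 were higher (median 2.71) and 1 was called lower. The sum of that list fell, from 159 and 176 RPM in number 1 to 83.2 and 115 RPM in number 3. Other lists went the opposite way: all 8 tested erythroid and megakaryocyte markers were lower in number 3 (median -1.60), as were 6 of 7 endothelial and stromal markers (-1.65) and 10 of 11 stem cell markers (-1.97). Between numbers 3 and 2, list medians were 0.28 (macrophage and monocyte), 0.49 (neutrophil), 1.90 (dendritic), 1.53 (B cell), 1.83 (T and NK cell) and 2.61 (mast cell and basophil). They were -1.15 for erythroid and megakaryocyte, -1.97 for endothelial and stromal, -1.15 for stem cell and 1.88 for multipotent progenitor markers. The part of these cells, or of the multipotent progenitor genes, in the members' differences between numbers was not tested.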

How the data were processed

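Poly(A) RNA libraries, 3 per group, were sequenced as single-end 50-base reads, per the labels' protocols, after amplification with an ultra-low-input cDNA kit. Per the submitters' processing notes, CASAVA 1.8.2, TopHat2 2.0.8, Partek and mm10 were used. Annotation and strand use: not given in the sources used here. Deposited by the authors is 1 normalized signal per gene and library, whose unit was worked out from the values: each column has a floor of 1, and the excess steps by a constant, so values were read as RPM plus 1. Of values of up to 20 reads, 61.0% to 68.5% lay within 0.1 of a whole read, so no count model was used.

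The offset of 1 was removed, and log2(RPM + 1) of the 13597 genes whose mean reached 1 RPM went into limma 3.58.1 (R 4.3.3, trend and robust moderation, Benjamini-Hochberg at 0.05). Fold changes on this scale understate low genes. Symbols matched 40254 of 41128 IDs, and positions and exon lengths are from GENCODE M21 on GRCm38. Same-numbered libraries deviated from their group means together (correlations of 0.551, 0.256 and 0.696), so the numbers were treated as pairs in an alternative fit. Among pairs of different numbers, DMSO 2 with YH250 1 gave 0.144 and DMSO 1 with YH250 2 gave 0.109, and the others were negative. The members, the lists and the contrasts between numbers were chosen with earlier results of these data known. Named are the 2 members of smallest p per role, the 10 of smallest p of all and the TFEB and Atg8 families. All members called between numbers are named too, and other members so that all 39 are accounted for. Of the 2 genes of smallest p in each other list and contrast, only some are given with values: Rptor, Pla2g15, Atg10, Ctss and Cd63. The script was tested on simulated data with independent noise and, for the treatment fit, no effect of replicate number. Real libraries of the same number deviated together, so that test does not measure how the treatment fit performs here. Alternatives were other pseudocounts, filters, scalings, moderation, array weights and left-out libraries.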

Additional observations from a re-analysis of the deposited data

How the results depend on the processing

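With the replicate block, YH250 minus DMSO called 0 genes and 0 members, as without it, and it changed no other call. Leaving out 1 library at a time kept both at 0. Between numbers 3 and 1 the 1164 genes became 180 with no minimum mean, 526 without trend and robust moderation, 2641 with array weights and 417 to 3010 with 1 library left out. The 3 members became 0 with no minimum mean or without trend, 5 with a minimum of 5 RPM, with libraries rescaled to the same sum or with median ratios, 8 with array weights, and 1 to 7 with 1 library left out. Between numbers 3 and 2 the 858 genes became 42 with no minimum mean, 154 without trend and 250 to 3137 with 1 library left out. The 4 members became 0, 0 and 0 to 10 in these settings, and 7 with a minimum of 5 RPM. Between numbers 2 and 1 the 27 genes became 0 with no minimum mean or without trend, 75 with a minimum of 5 RPM, 46 with quantile normalization and 39 to 1764 with 1 library left out, with 0 to 3 members. A left-out library leaves 1 number with a lone library, assumed to vary like the others. The cause of these shifts was not tested. Small differences between treatments changed sign: Gabarap to 0.055 with array weights and 0.091 without both libraries numbered 3, Hexa to -0.0025 without both numbered 2, and Tfeb to 0.31 and 0.074 without both numbered 1 or 2. With 1 library left out, the ranges were -0.093 to 0.12 (Gabarap), -0.49 to 0.19 (Gabarapl1), -0.058 to 0.63 (Gabarapl2), -0.032 to 0.60 (Map1lc3a), -0.37 to 0.11 (Npc1) and -1.01 to 0.29 (Tfeb).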
